A study of Homo sapiens with 9 samples.

Results

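The genes described here are the interleukins, their receptor chains and the genes named after them, measured in HL-60 clone 15 cells that carried an inducible RhoH construct or a GFP construct. Members were taken by symbol: every named gene whose symbol starts with IL, TNFSF or TNFRSF and a number, without antisense and pseudogene symbols and without IL3RA and IL8. This gave 54 of the 14778 named genes on the array: 27 interleukin ligands, 21 receptor chains, 3 soluble antagonists, 1 enzyme and 2 long non-coding RNAs (lncRNAs). The TNF superfamily is hardly represented by the symbols: 0 protein-coding genes with a TNFSF or TNFRSF symbol were among the named genes, and the lncRNA TNFRSF10A-DT was the single member from that side. IL10RB-DT and TNFRSF10A-DT are divergent transcripts of receptor genes, so they were kept and are described apart from the 52 protein-coding members.

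HL-60 is an established human promyelocytic leukaemia line, and clone 15 is a variant that can be driven towards eosinophils. The 9 arrays fell into 3 groups of 3, each replicate being described by the submitters as biological. The induced RhoH group carried the lentiviral RhoH construct and received 100 nM 4-hydroxytamoxifen (4-OHT). The uninduced RhoH group carried the same construct and received no 4-OHT, and the GFP group carried a GFP construct and received 4-OHT. RhoH is a small GTPase of blood cells that lacks GTPase activity. All groups were transduced cells of the same line, and whether each population was 1 clone was not given in the sources used here. A GFP group without 4-OHT was not analysed here, so the construct, the cell population and 4-OHT cannot be told apart in the comparisons with GFP cells, and the construct's product and 4-OHT cannot be told apart between the RhoH groups.

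Interleukins are secreted signals, most of which bind paired receptor chains on blood cells or other cells. Receptors of the IL-1 and IL-18 family join a ligand-binding chain to an accessory chain and signal through the adaptor MYD88 and IRAK kinases, whereas the haematopoietin receptors signal through JAK kinases and STAT factors. Chains of the IL-17 receptor family share IL17RA. In myeloid cells these receptors set which cytokines a precursor can respond to, and IL-5, IL-18 and IL-33 are known for their actions on eosinophils and related cells.

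Values are log2 signals as deposited, and a difference of log2 values is a log2 fold change. A gene was called where limma gave an adjusted p under 0.05 over all 14778 genes. RHOH itself read 5.60, 5.73 and 5.45 on the arrays labelled induced RhoH, 5.23, 5.25 and 5.15 on those labelled uninduced RhoH and 5.90, 5.94 and 5.94 on those labelled GFP. The arrays labelled induced were above the uninduced ones (limma adjusted p = 0.0451) and below every GFP array (log2 difference of -0.33, adjusted p = 0.0717). RHOH was thus highest on the arrays labelled GFP, which would go against those labels if the probe set read the construct's transcript. The higher call in induced cells was lost in 12 of 17 alternatives (limma adjusted p up to 0.192). Whether the probe set reads the construct's transcript was not given in the sources used here, so groups below are named by their labels and every direction rests on them. Array medians ran from 5.43 to 5.55, and the lowest correlation between arrays of a group was 0.974 in the induced group, 0.98 in the uninduced group and 0.995 in the GFP group. The SD of each array's deviations from its group mean over all genes was largest on induced replicates 1 and 3 (0.2 and 0.204) and uninduced replicate 1 (0.206), against 0.09 to 0.096 on GFP arrays.

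The 4 promyelocyte markers measured of 6 listed (MPO, PRTN3, AZU1 and CTSG) averaged 11.8 to 12.2 on induced RhoH arrays, 12.3 on uninduced RhoH arrays and 10.6 on GFP arrays. The eosinophil markers EPX, CLC and SIGLEC8 (3 measured of 5 listed) averaged 7.25 to 7.79, 7.39 to 8.10 and 6.20 to 6.27 in the same order of groups. The monocyte markers CD14, CSF1R and CD163 (3 of 5) averaged 5.34 to 5.64, 5.30 to 5.62 and 5.83 to 6.05. The T-cell markers CD2, CD5 and CD8A (3 of 6) averaged 6.13 to 6.39, 6.21 to 6.23 and 6.12 to 6.16. The B-cell marker PAX5 (1 of 5) read 6.04 to 6.32, 6.19 to 6.47 and 5.83 to 6.06. The means of the promyelocyte and of the eosinophil markers were thus higher on every RhoH array than on every GFP array. Among the eosinophil markers SIGLEC8 was called in no comparison, with averages of 4.75, 4.68 and 4.62 in the same order of groups. The mean of the monocyte markers was lower with CD14 as the 1 marker called. The part of these markers in the results below was not tested.

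Many members had a low signal. Of the 54 members, 27 had a mean at or above the median of all probe sets on the array (log2 5.48), against 10148 of 14778 named genes. Among the ligands 10 of 27 reached that limit, and among the receptor chains 12 of 21.

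The promoters of 4 IL-1 family receptor genes are printed here because IL18RAP, IL18R1 and IL1RAP had the largest differences between uninduced RhoH and GFP cells, while IL1RL1, the neighbour of IL18R1, was called in no comparison. They show the 250 bases before the furthest upstream listed start in RefSeq (GRCh38.p14), in lower case with motif matches in capitals.
IL18R1 (chr2:102355546-102355795, plus strand): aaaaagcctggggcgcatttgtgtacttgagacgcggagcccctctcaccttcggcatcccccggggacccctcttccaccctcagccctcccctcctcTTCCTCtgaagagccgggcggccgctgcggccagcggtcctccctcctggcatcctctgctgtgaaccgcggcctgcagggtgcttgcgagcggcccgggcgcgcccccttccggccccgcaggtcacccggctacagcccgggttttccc
IL18RAP (chr2:102418371-102418620, plus strand): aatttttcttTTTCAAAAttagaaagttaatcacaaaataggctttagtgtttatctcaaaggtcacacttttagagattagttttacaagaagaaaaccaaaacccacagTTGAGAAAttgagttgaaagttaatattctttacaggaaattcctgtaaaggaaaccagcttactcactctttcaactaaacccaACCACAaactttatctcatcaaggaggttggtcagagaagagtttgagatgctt
IL1RL1 (chr2:102311313-102311562, plus strand): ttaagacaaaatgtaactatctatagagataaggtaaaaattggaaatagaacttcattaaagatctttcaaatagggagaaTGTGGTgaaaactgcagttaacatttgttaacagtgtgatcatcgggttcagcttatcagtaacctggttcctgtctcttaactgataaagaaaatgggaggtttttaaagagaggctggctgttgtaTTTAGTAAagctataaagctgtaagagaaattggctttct
IL1RAP (chr3:190513835-190514084, plus strand): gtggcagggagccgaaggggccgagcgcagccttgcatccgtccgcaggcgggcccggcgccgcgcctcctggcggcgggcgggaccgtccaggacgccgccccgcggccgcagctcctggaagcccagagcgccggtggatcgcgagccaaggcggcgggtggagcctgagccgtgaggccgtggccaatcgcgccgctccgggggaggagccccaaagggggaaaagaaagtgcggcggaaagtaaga
IL18R1, IL18RAP and IL1RL1 lie next to each other on chromosome 2, in the protein-coding order IL1RL2, IL1RL1, IL18R1, IL18RAP. The IL18R1 window was 70.4% GC with 21 CpG dinucleotides, and the IL18RAP window was 32.4% GC with 0 CpG. The IL1RL1 window was 33.6% GC with 1 CpG, the IL1RAP window on chromosome 3 was 74.8% GC with 33, and the median of 27305 promoters was 57.6% GC with 10. Searched on both strands were AP-1 (TGANTCA, in 6.57% of all promoters), PU.1 (GAGGAA, 23.4%), RUNX (TGTGGT, 11.0%), GAS (TTCNNNGAA, 6.76%), C/EBP (TTNNGNAA, 33.7%) and the NF-kB consensus (9.58%). IL18R1 held 1 PU.1 match, IL18RAP held 1 RUNX and 2 C/EBP matches, IL1RL1 held 1 RUNX and 1 C/EBP match, and IL1RAP held none of the 6. Of the 54 members, 41 had a promoter in the table.

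The arrays labelled induced and uninduced RhoH compared the same transduced cells with and without 4-OHT. Higher in the induced cells were 5 members, namely both IL-18 receptor chains IL18R1 and IL18RAP, the IL-17 receptor chains IL17RA and IL17RE, and the lncRNA IL10RB-DT, and 0 members were lower. That is 9.26% of the members called, against 3.78% of all genes in either direction, 3.02% higher and 0.751% lower. The median log2 fold change was 0.07 over the members, -0.004 over all genes, 0.11 over the receptor chains and 0.05 over the ligands. For 9 members every induced array lay above every uninduced one, and for 0 members below, with 14.5% of all genes separated in either direction. Without 1 array the count of members called higher ranged from 1 to 5, and that of all genes from 287 to 413. Among the markers CTSG, a granule protease of promyelocytes, was called lower in induced than in uninduced cells (log2 -0.83, limma adjusted p = 0.00703), and that call was lost without both RhoH replicate 1 arrays and with only the 6 arrays compared. EPX, the eosinophil peroxidase, had a log2 difference of -0.75 with every induced array below every uninduced one (limma adjusted p = 0.056), and it was called in some alternatives, such as with dim genes left out (limma adjusted p = 0.0356). The other promyelocyte, eosinophil and monocyte markers were not called in this comparison, and the part of the markers in these results was not tested.

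IL18R1, the ligand-binding chain of the IL-18 receptor, read 6.51, 6.48 and 6.43 in induced cells, 5.95, 5.79 and 5.71 in uninduced cells and 7.05, 7.35 and 7.32 in GFP cells. The 3 groups did not overlap, with uninduced cells lowest and GFP cells highest. IL18R1 was 1.58-fold higher in induced than in uninduced cells (log2 0.66, SE 0.11, limma adjusted p = 0.00707) and the call held in all 17 alternative fits, which left out arrays or changed the normalization, filter or weights. Its accessory chain IL18RAP, without which IL-18 does not signal, read 5.80, 5.94 and 6.16 in induced cells, 5.54, 5.55 and 5.21 in uninduced cells and 7.36, 7.38 and 7.42 in GFP cells. Here too the groups did not overlap and ran in the same order. IL18RAP was 1.45-fold higher in induced cells (log2 0.54, SE 0.12, limma adjusted p = 0.0374), but the call was lost in 11 of 17 alternatives, with adjusted p up to 0.162, among them leaving out any 1 uninduced or GFP array or induced replicate 2 or 3.

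IL17RA, the chain shared by the IL-17 receptors, read 11.21, 11.02 and 11.03 in induced cells, 10.62, 10.66 and 10.53 in uninduced cells and 11.22, 11.25 and 11.20 in GFP cells. Every uninduced array was below every array of the other groups, and induced and GFP cells overlapped. IL17RA was 1.4-fold higher in induced than in uninduced cells (log2 0.48, limma adjusted p = 0.0128), and the call was lost without uninduced replicate 3 or with only the 6 arrays compared, with adjusted p up to 0.089. IL17RE, which pairs with IL17RA to bind IL-17C, read 7.74, 7.13 and 7.27 in induced cells, 6.73, 6.70 and 6.86 in uninduced cells and 7.03, 7.10 and 7.06 in GFP cells. Induced replicate 1 stood well above the other arrays. The increase of 1.53-fold over uninduced cells (log2 0.61, SE 0.14, limma adjusted p = 0.0418) was lost in 12 of 17 alternatives, with adjusted p up to 0.174, among them leaving out any 1 uninduced or GFP array or induced replicate 3. IL17RC, another chain that pairs with IL17RA, read 5.83, 5.89 and 5.74 in induced cells, 5.80, 5.80 and 5.85 in uninduced cells and 5.78, 5.78 and 5.59 in GFP cells, and was called in no comparison.

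IL10RB-DT, transcribed divergently from the IL-10 receptor gene IL10RB, read 7.01, 7.14 and 7.65 in induced cells, 6.53, 6.49 and 6.72 in uninduced cells and 7.38, 7.40 and 7.39 in GFP cells. It was 1.61-fold higher in induced than in uninduced cells (log2 0.69, limma adjusted p = 0.034), and that call was lost in 9 of 17 alternatives, with adjusted p up to 0.151, among them leaving out any 1 uninduced or GFP array or induced replicate 2. The GFP arrays were nearly equal, while the induced arrays spread with an SD of 0.34.

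The 14 receptor chains called in no comparison had log2 differences between induced and uninduced cells from -0.23 to 0.35, with limma adjusted p of 0.227 or more. IL7R, a chain of the IL-7 receptor, read 5.23, 5.24 and 5.69 in induced cells, 5.11, 4.96 and 5.04 in uninduced cells and 5.20, 5.20 and 5.00 in GFP cells. Induced replicate 3 was its highest array, and every induced array lay above every uninduced and every GFP array. The log2 difference of IL7R between induced and uninduced cells was 0.35 (limma adjusted p = 0.227). IL21R, a chain of the IL-21 receptor, read 5.75, 5.83 and 6.39 in induced cells, 5.69, 5.80 and 5.73 in uninduced cells and 5.69, 6.01 and 5.86 in GFP cells. Again induced replicate 3 was highest, but the groups of IL21R overlapped. IL1RL1, the IL-33 receptor, read 5.79, 5.25 and 5.26 in induced cells, 5.40, 5.25 and 4.88 in uninduced cells and 5.27, 5.27 and 5.35 in GFP cells. Its groups overlapped, unlike those of its neighbour IL18R1. IL4R, a chain of the IL-4 and IL-13 receptors, averaged 8.78 ± 0.18 in induced cells, 8.76 ± 0.08 in uninduced cells and 8.73 ± 0.03 in GFP cells (SD, n = 3 each), with a log2 difference between induced and uninduced cells of 0.03 and a 95% interval from -0.20 to 0.25. IL1RAP, the accessory chain of the IL-1, IL-33 and IL-36 receptors, is not among these 14, since it was called in both comparisons with GFP cells. Between induced and uninduced cells its log2 difference was 0.30, with every induced array above every uninduced one (limma adjusted p = 0.0712). That difference was called without induced replicate 3 (limma adjusted p = 0.0415) and with array weights (limma adjusted p = 0.0301).

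**Figure D1:**
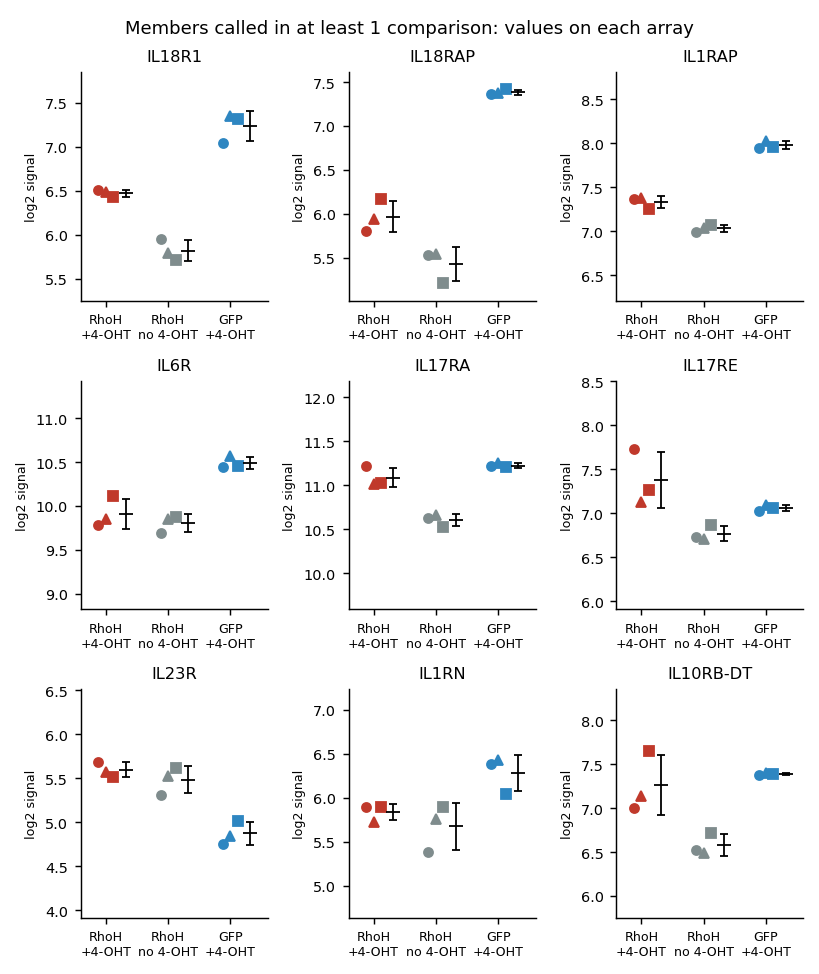
Log2 signal of the 9 called members on each array (points; circle, triangle and square mark replicates 1, 2 and 3) in induced RhoH, uninduced RhoH and GFP cells, with mean and SD (horizontal tick and bar). In IL18R1, IL18RAP and IL1RAP the induced arrays sit between the uninduced and the GFP arrays.

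The arrays labelled induced RhoH and GFP compared the 4-OHT-treated populations. Lower in the induced cells were 4 members, namely IL18R1, IL18RAP, IL1RAP and the IL-6 receptor chain IL6R, and 1 member, IL23R, was higher. That is 9.26% of the members, against 4.49% of all genes in either direction, 1.74% higher and 2.75% lower. The 4 lower members were all receptor chains, and IL23R is the chain particular to the IL-23 receptor. The arrays separated fully for 5 members higher and 5 lower, with 22.5% of all genes separated in either direction. IL17RA, IL17RE and IL10RB-DT, which is 3 members or 5.56%, were called against uninduced cells and not against GFP cells, as were 2.5% of all genes.

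IL18R1 was 1.7-fold lower in induced cells (log2 difference of -0.76, limma adjusted p = 0.00289) and IL18RAP was 2.67-fold lower (-1.42, limma adjusted p = 0.000173), and both calls held in all 17 alternatives. IL1RAP read 7.37, 7.38 and 7.25 in induced cells, 6.99, 7.04 and 7.07 in uninduced cells and 7.94, 8.03 and 7.96 in GFP cells. Its arrays too did not overlap, and it was 1.57-fold lower in induced than in GFP cells (-0.65, limma adjusted p = 0.00135). IL6R read 9.78, 9.85 and 10.11 in induced cells, 9.69, 9.85 and 9.88 in uninduced cells and 10.44, 10.56 and 10.45 in GFP cells. IL6R was 1.49-fold lower (-0.57, limma adjusted p = 0.0137), and the call was lost without any 1 GFP array, with adjusted p up to 0.0792. IL23R read 5.69, 5.58 and 5.52 in induced cells, 5.31, 5.52 and 5.62 in uninduced cells and 4.76, 4.85 and 5.02 in GFP cells, 1.65-fold higher in induced than in GFP cells (log2 0.72, limma adjusted p = 0.00446). Its induced and uninduced arrays overlapped, and all 3 GFP arrays lay below them. The call held in all 16 alternatives that kept IL23R, since the filter on dim probe sets left it out.

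Both comparisons of induced cells share the induced arrays. IL18R1 and IL18RAP were higher than in uninduced cells and lower than in GFP cells, which is 2 members or 3.70%, against 0.988% of all genes. 0 members were called the same way in both by limma, against 0.122% of all genes. Of the 3 monocyte markers 1 was called, CD14, which was lower than in GFP cells (log2 -1.35, limma adjusted p = 0.00726), while CSF1R and CD163 had log2 differences of 0.02 and 0.09. In the same comparison the promyelocyte markers were called higher in 4 of 4 and the eosinophil markers in 2 of 3, and their part in these results was not tested. IL9R, a chain for IL-9 whose near-identical copies can share probes, had a log2 difference of 0.46 (limma adjusted p = 0.0562), with 8.17, 8.34 and 8.58 in induced cells, 8.08, 8.17 and 8.23 in uninduced cells and 8.01, 7.77 and 7.93 in GFP cells. Every induced array of IL9R lay above every GFP array, and the difference was called in some alternatives, such as after quantile normalization (limma adjusted p = 0.00986).

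The arrays labelled uninduced RhoH and GFP differed in both construct and 4-OHT. Lower in uninduced cells were 7 members, namely IL18RAP, IL18R1, IL1RAP, IL10RB-DT, IL6R, IL17RA and IL1RN, and 1, IL23R, was higher. That is 14.8% of the members, near the 15.3% of all genes called in either direction (6.01% higher and 9.27% lower). The largest difference was IL18RAP, 3.88-fold lower (log2 -1.96, limma adjusted p = 4.36e-06), followed by IL18R1, 2.68-fold lower (-1.42, limma adjusted p = 1.25e-05). IL1RAP was 1.93-fold lower (-0.95), IL10RB-DT 1.76-fold lower (-0.81), IL6R 1.6-fold lower (-0.68) and IL17RA 1.54-fold lower (-0.62), each with a limma adjusted p of 0.00461 or less. IL23R was 1.53-fold higher (log2 0.61, limma adjusted p = 0.00336). The arrays separated fully for 5 members higher and 10 lower, with 37.3% of all genes separated in either direction.

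IL1RN, the soluble antagonist of the IL-1 receptor, read 5.89, 5.73 and 5.89 in induced cells, 5.38, 5.76 and 5.89 in uninduced cells and 6.38, 6.43 and 6.04 in GFP cells. It was 1.52-fold lower in uninduced than in GFP cells (log2 -0.61, limma adjusted p = 0.0199), and the call was lost without uninduced replicate 1, without GFP replicate 1 or 2 and without both RhoH replicate 1 arrays, with adjusted p up to 0.0928. Of the 3 monocyte markers 1 was called, CD14, which was lower (log2 -1.47, limma adjusted p = 0.00126), while CSF1R and CD163 had log2 differences of -0.31 and 0.22. In the same comparison the promyelocyte markers were called higher in 4 of 4 and the eosinophil markers in 2 of 3, and their part in these results was not tested. The other antagonists, IL18BP and IL36RN, had differences of -0.23 and 0.27 that did not pass.

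**Figure D2:**
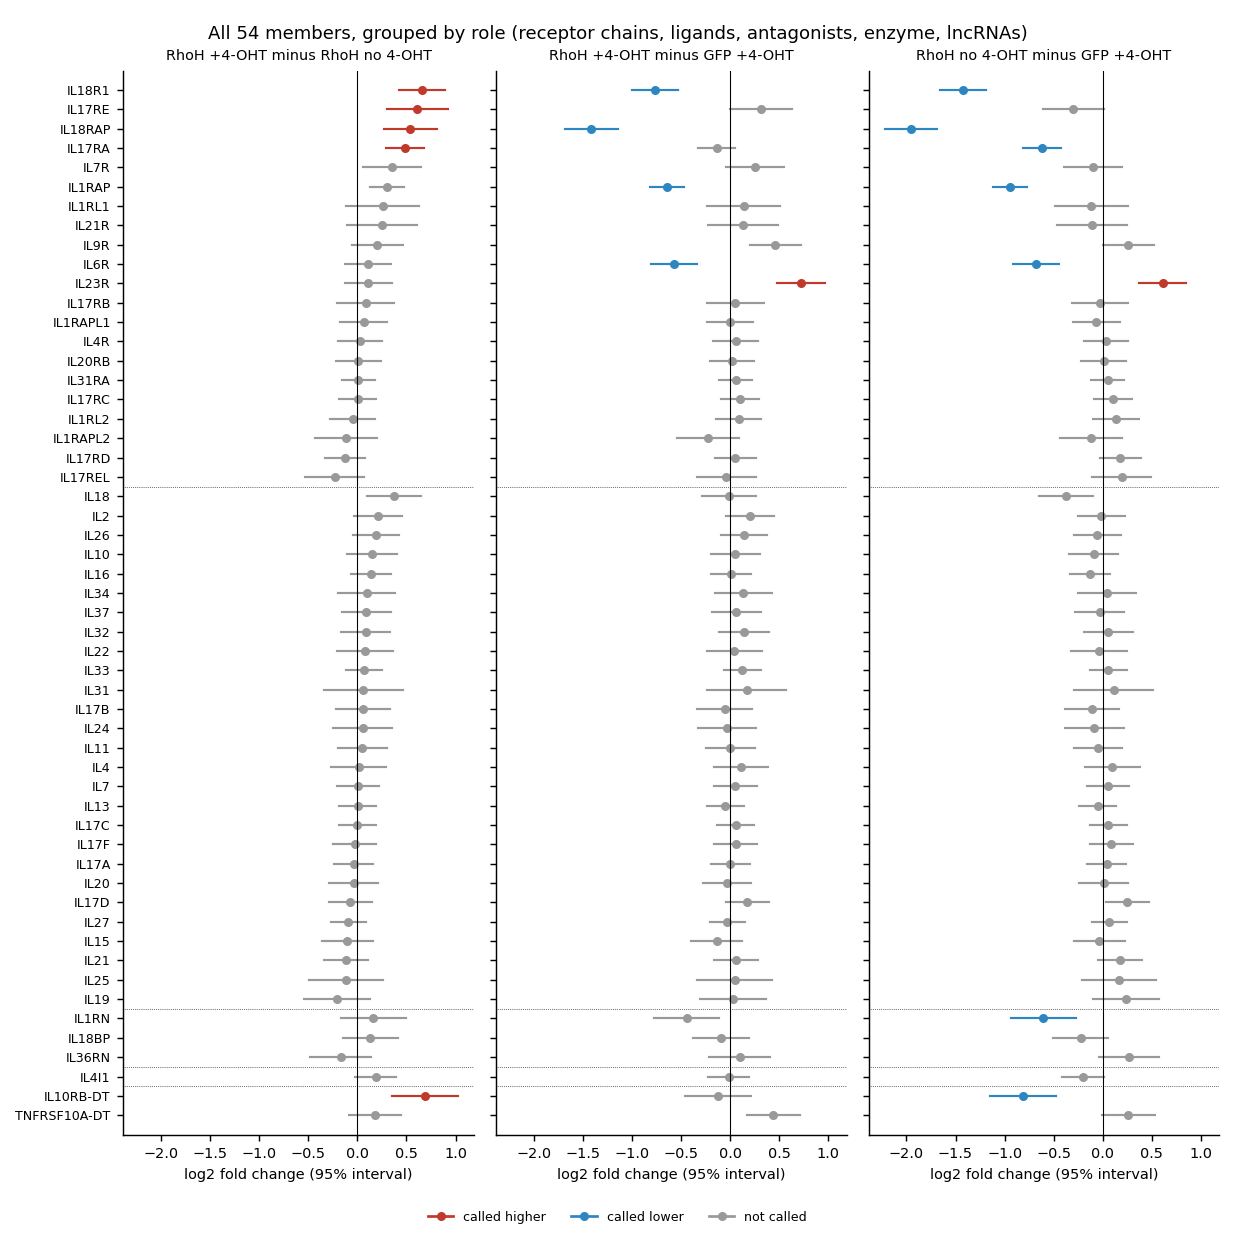
Log2 fold changes with 95% intervals of all 54 members in the 3 comparisons, ordered by role with receptor chains at the top, then ligands, antagonists, the enzyme and lncRNAs. Red and blue mark members called higher and lower, and the calls sit among the receptor chains, IL1RN and IL10RB-DT, with no ligand called.

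Of the 27 interleukin ligands, 0 were called by limma in the fit reported in any comparison, where 3.78%, 4.49% and 15.3% of all genes were called in the order of the comparisons above. At an unadjusted p under 0.05 there was 1 ligand higher in induced than in uninduced cells, 0 in induced against GFP cells, and 1 higher and 1 lower in uninduced against GFP cells. Of all 14778 genes, 1268 higher and 871 lower, 1157 and 1262, and 1813 and 1999 reached it in those comparisons. In uninduced against GFP cells some alternative fits called IL18 or IL17D. IL18, the ligand of the IL18R1 and IL18RAP chains, read 8.33, 8.35 and 8.16 in induced cells, 7.62, 8.04 and 8.06 in uninduced cells and 8.23, 8.33 and 8.30 in GFP cells. Its log2 difference was 0.37 between induced and uninduced cells (limma adjusted p = 0.169) and -0.01 between induced and GFP cells. Between uninduced and GFP cells the log2 difference of IL18 was -0.38 with every uninduced array below every GFP array (limma adjusted p = 0.0711), and it was called with dim genes left out (limma adjusted p = 0.0496) and with array weights (limma adjusted p = 0.0171). Over the 27 ligands the differences ran from -0.21 to 0.37 between induced and uninduced cells, from -0.14 to 0.20 between induced and GFP cells, and from -0.38 to 0.25 between uninduced and GFP cells. The widest 95% intervals of the ligands reached -0.54 and 0.65 between induced and uninduced cells, -0.40 and 0.57 between induced and GFP cells, and -0.65 and 0.58 between uninduced and GFP cells. The 95% intervals lay within 0.5 either way for 25, 26 and 23 of the 27 ligands in those comparisons. Of these ligands 17 had a mean below the median of all probe sets (log2 5.48). RMA compresses such low signals, so a narrow interval there does not show that expression was unchanged.

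Ligands of the type-2 and eosinophil setting were among those not called, while IL5 was not among the named genes. IL4 and IL13 averaged 3.68 and 5.41 in induced cells, 3.66 and 5.40 in uninduced cells and 3.57 and 5.46 in GFP cells. The IL-33 gene IL33 averaged 3.06, 2.99 and 2.93, the IL-10 gene IL10 averaged 4.56, 4.42 and 4.51, and IL15, a T- and NK-cell growth factor, averaged 3.37, 3.47 and 3.50 in the same groups. IL16, a ligand of CD4, averaged 6.04, 5.90 and 6.03, and IL32 averaged 5.94, 5.85 and 5.80. The SDs of these ligands within groups were 0.26 or less over 3 arrays. Of the IL-17 ligands, IL17D had the largest difference: it averaged 6.50 ± 0.10 in induced cells, 6.57 ± 0.12 in uninduced cells and 6.32 ± 0.10 in GFP cells (SD, n = 3 each), a log2 difference of 0.25 between uninduced and GFP cells (limma adjusted p = 0.134, and 0.00965 with array weights). IL2, a T-cell growth factor, read 2.49, 2.78 and 2.65 in induced cells, 2.24, 2.50 and 2.55 in uninduced cells and 2.49, 2.40 and 2.43 in GFP cells. IL4I1, a secreted L-amino acid oxidase, averaged 8.44, 8.25 and 8.46 and was not called (limma adjusted p = 0.436 between induced and uninduced cells).

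The signalling genes below the IL-1 and IL-18 receptors were listed with earlier results of these data known. Of 10 measured, MYD88 was called higher in induced than in uninduced cells (log2 0.67, limma adjusted p = 0.028), and MYD88, TAB2 and IRAK3 were called lower in induced than in GFP cells (limma adjusted p of 0.0193, 0.00125 and 0.0273 in that order). MYD88, the adaptor of these receptors, read 7.58, 7.50 and 7.84 in induced cells, 6.69, 7.24 and 6.98 in uninduced cells and 8.38, 8.36 and 8.31 in GFP cells. Its groups did not overlap and ran in the same order as IL18R1 and IL18RAP, but the call against uninduced cells was lost in 10 of 17 alternatives and that against GFP cells in 5 of 17, including without any 1 GFP array. TAB2, an adaptor of the kinase TAK1, had a log2 difference of -0.71 between induced and GFP cells and IRAK3, a brake on these receptors, of -0.52. The IRAK3 call was lost in 6 of 17 alternatives, including without any 1 GFP array. For IRAK3 the probe set with the higher mean of 2 was used, and the other was not compared. For comparison, 3.78% of all genes were called between induced and uninduced cells and 4.49% between induced and GFP cells. In uninduced against GFP cells, where 15.3% of all genes were called and 9.27% were lower, 5 of the 10 were lower: MYD88 (-1.38), TAB2 (-1.03), IRAK3 (-0.75), IRAK2 (-0.36) and MAP3K7 (-0.28). The calls of IRAK2 and MAP3K7 were lost in 6 and 9 of 17 alternatives, including without any 1 GFP array.

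**Figure D3:**
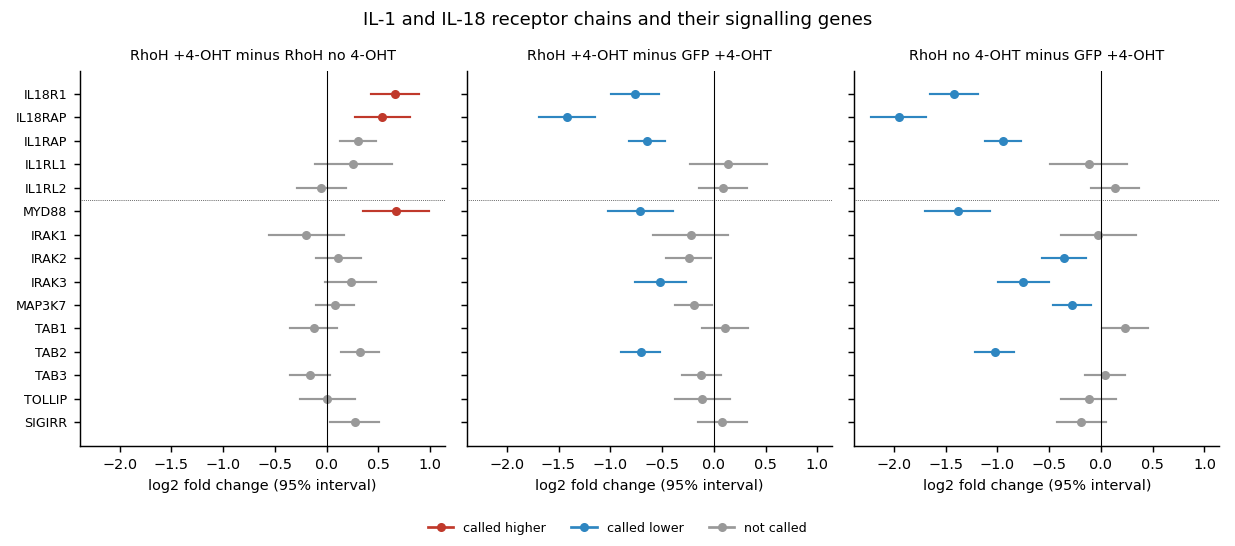
Log2 fold changes with 95% intervals of the IL-1 family receptor chains (above the dotted line) and their measured signalling genes (below it) in the 3 comparisons. IL18R1, IL18RAP and MYD88 are called higher against uninduced cells and lower against GFP cells.

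The TNF side was read from genes with other symbols. Of 3 ligands (TNF, CD70 and EDA) and 5 receptors (CD27, NGFR, EDAR, EDA2R and RELT), 0 were called by limma in any comparison, and 0 had an unadjusted p under 0.05. Of all 14778 genes, 3.78%, 4.49% and 15.3% were called in the 3 comparisons. The unadjusted limit was reached by 1268 genes higher and 871 lower, 1157 and 1262, and 1813 and 1999 in the same order. TNF read 8.03, 7.98 and 8.94 in induced cells, 7.80, 7.88 and 7.62 in uninduced cells and 9.19, 8.02 and 8.02 in GFP cells. In each of the induced and GFP groups 1 array was high, and every uninduced array lay below every array of both. The log2 difference of TNF was 0.55 between induced and uninduced cells (limma adjusted p = 0.546) and -0.64 between uninduced and GFP cells (limma adjusted p = 0.262). TNF had 8 probe sets, of which the one with the highest mean was used and the others were not compared. TNFRSF10A-DT, next to the TRAIL receptor gene TNFRSF10A, read 7.26, 7.41 and 7.61 in induced cells, 7.10, 7.41 and 7.24 in uninduced cells and 6.96, 7.12 and 6.89 in GFP cells, with a log2 difference of 0.44 between induced and GFP cells (limma adjusted p = 0.0744). A second probe set of TNFRSF10A-DT gave -0.03 between induced and uninduced cells, where the one used gave 0.18, and 0.01 between induced and GFP cells.

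Of the adaptors and regulators of TNF receptors, 11 were measured, of which 2, 2 and 5 were called in the 3 comparisons, where 3.78%, 4.49% and 15.3% of all genes were called. CYLD, a deubiquitinase that restrains NF-kB signalling, read 8.45, 8.49 and 8.42 in induced cells, 7.61, 8.05 and 7.98 in uninduced cells and 9.33, 9.43 and 9.39 in GFP cells. It was higher in induced than in uninduced cells (log2 0.58, limma adjusted p = 0.0225) and lower than in GFP cells (-0.93, limma adjusted p = 0.00154). The first of these calls was lost in 6 of 17 alternatives, among them without uninduced replicate 3, induced replicate 1 or 2, or GFP replicate 3. TRAF3, an adaptor of several TNF receptors, was lower in induced than in uninduced cells (-0.43, limma adjusted p = 0.0491), and that call was lost in 11 of 17 alternatives, including without any 1 GFP array. BIRC2, an inhibitor of apoptosis that works with TNF receptors, was lower in induced than in GFP cells (-0.87, limma adjusted p = 0.00352). In uninduced against GFP cells BIRC2 (-1.19), CYLD (-1.50), TRAF1 (-0.54) and TNIP1 (-0.48) were lower and TRAF3 (0.41) was higher. Calls lost there were TRAF3 in 6 of 17 alternatives, TNIP1 in 5 and TRAF1 without GFP replicate 3.

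**Figure D4:**
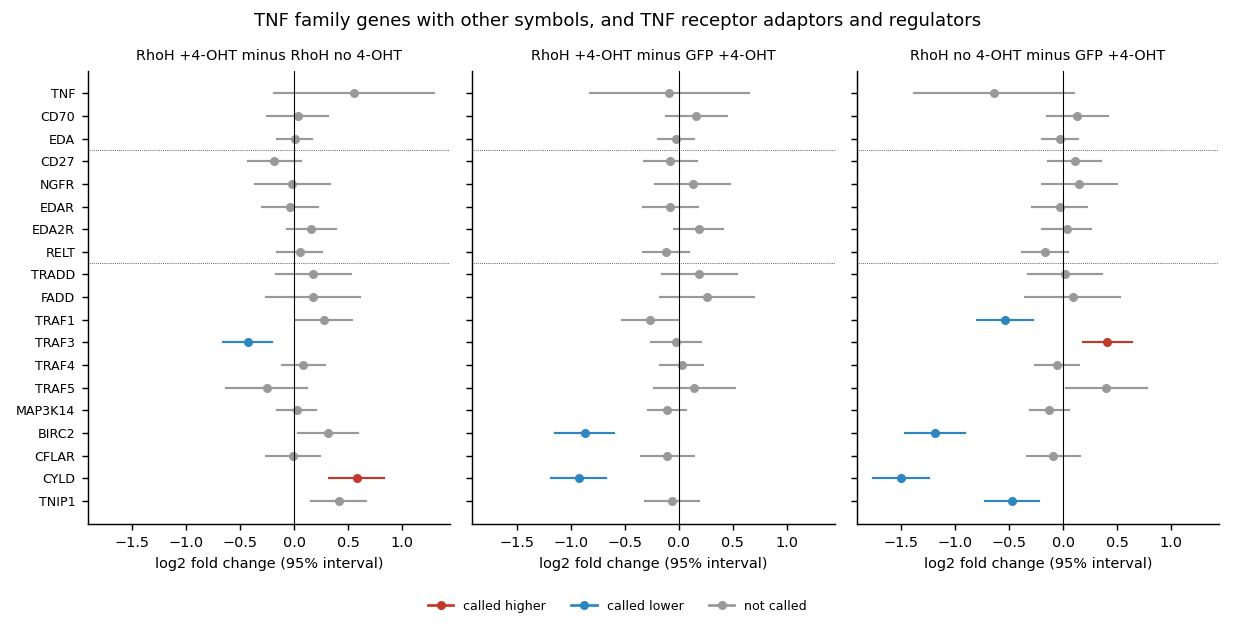
Log2 fold changes with 95% intervals of TNF family ligands and receptors with other symbols (above the second dotted line) and TNF receptor adaptors and regulators (below it) in the 3 comparisons. All calls in this plot are of CYLD, TRAF3, BIRC2, TRAF1 and TNIP1.

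Interferon and haematopoietin receptors with other symbols were measured for 10 genes, of which 1, 1 and 3 were called in the 3 comparisons, against the same shares of all genes. IFNGR2, a chain of the interferon-gamma receptor, was higher in induced than in uninduced cells (log2 0.39, limma adjusted p = 0.0401), and its partner IFNGR1 was lower in induced than in GFP cells (-0.68, limma adjusted p = 0.0136). The IFNGR2 call was lost without any 1 of the 9 arrays, with adjusted p up to 0.173, and the IFNGR1 call without any 1 GFP array, with adjusted p up to 0.0699. In uninduced against GFP cells IFNGR1 (-0.99), the leptin receptor LEPR (-0.55) and IFNGR2 (-0.44) were lower. Of 12 JAK, STAT and SOCS genes, the kinase JAK1 was higher in induced than in uninduced cells (0.53, limma adjusted p = 0.0298). Between induced and GFP cells 0 were called, although an unadjusted p under 0.05 was reached by 3 in the higher and 2 in the lower direction. Of all 14778 genes, 1157 and 1262 reached it in those directions. The JAK1 call was lost in 10 of 17 alternatives, including without any 1 uninduced or GFP array. In uninduced against GFP cells 3 of the 12 were called, against 15.3% of all genes: JAK1 (-0.68) and TYK2 (-0.48) were lower and STAT5B (0.62) was higher, with the TYK2 call lost in 5 of 17 alternatives. The 3 measured genes of IL-1 processing, PYCARD, GSDMD and AIM2, were called by limma in no comparison. At an unadjusted p under 0.05, 1 of them was higher in induced than in GFP cells, as were 1157 of all 14778 genes.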

How the data were processed

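Expression was measured on Affymetrix whole-transcript arrays in 9 samples. The deposited values are log2 signals, made with Affymetrix Power Tools, RMA and limma per the submitters' processing notes, with no versions or genome build given in the sources used here. RMA compresses low signals towards the background. The table held 43550 probe sets. The platform annotation named 15659 of them with 1 symbol and 27891 with none, and all 15659 Entrez identifiers matched the RefSeq table of GRCh38.p14. For 521 genes with over 1 probe set, the one with the highest mean was used, which gave 14778 genes. No further normalization was applied. limma 3.58.1 in R 4.3.3 fitted the 3 group means over the 9 arrays, with Benjamini-Hochberg adjustment over all genes and a threshold of 0.05. The script was tested on simulated data. Precision is limited by the small number of arrays, and 3 arrays against 3 cannot reach an exact permutation p below 0.1. Alternatives were other sets of arrays, a filter on dim probe sets, another normalization, all probe sets, array weights and the replicate number as a block. The members, gene lists, alternatives and the rule for named genes (every called member, some receptors and ligands whatever their values, and called genes of the pathway lists) were chosen with earlier results of these data known.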

Additional observations from a re-analysis of the deposited data

How the results depend on the processing

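The fit reported did not pair the arrays by the replicate numbers of the titles. Same-numbered arrays of the induced and uninduced groups had deviation correlations of 0.543, 0.368 and 0.065. Differently numbered arrays of these groups ran from -0.496 to 0.395. Replicate 1 of either group was negative against replicates 2 and 3 of the other (-0.445, -0.388, -0.496 and -0.137). Same-numbered induced and GFP arrays had 0.101, 0.154 and 0.008, against -0.125 to 0.015 with different numbers. Same-numbered uninduced and GFP arrays had 0.131, 0.153 and -0.026, against -0.159 to 0.09. With the replicate number as a block, 4 members were higher in induced than in uninduced cells (504 of all genes). The block gave 2 members higher in induced than in GFP cells (316 of all genes) and 1 higher in uninduced than in GFP cells (1033). It gave 0 members called the same way in both comparisons of induced cells. The members called higher in induced than in uninduced cells numbered 5 in the fit reported, 1 with only the 6 arrays compared and 2 with all probe sets tested, and 1 to 5 when 1 array was left out. The same settings gave 447, 182, 282 and 287 to 413 of all genes in that order. Higher in induced than in GFP cells were 1 in the fit reported, 3 without both RhoH replicate 1 arrays and 3 after quantile normalization. There were 2 after centring on the median, 3 with array weights and 1 to 2 when 1 array was left out. Over all genes these counts were 257, 512, 439, 290, 509 and 91 to 319 in that order. Lower there were 3 to 4 members when 1 array was left out, with 176 to 542 of all genes. Higher in uninduced than in GFP cells were 1, against 0 with dim genes left out, 3 after quantile normalization and 5 with array weights. Over all genes these counts were 888, 960 (of the 10148 kept), 1342 and 2358 in that order. Without 1 array, 1 was higher and 6 to 8 were lower there, with 504 to 1140 and 922 to 1530 of all genes. A change of sign was counted as a reversal only where the member was called in the fit reported or in the alternative, and by that count 0 were reversed. Uncalled differences did change sign: 80 of the 162 member comparisons did so in at least 1 alternative, the largest of them 0.18 in the fit reported. Of the calls of members, 12 of 18 held in every alternative that tested them, and 9 further member comparisons were called only in an alternative. The cause of the lost calls was not tested. The dim members bound what could be seen, since signals near background are compressed.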

Other observations

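Antisense transcripts of the same loci were left out of the members and were called in no comparison by limma. IL12B-AS1 averaged 5.03 in induced RhoH cells, 5.00 in uninduced RhoH cells and 5.02 in GFP cells. TNFRSF14-AS1 averaged 6.42 ± 0.25 in induced cells, 5.96 ± 0.33 in uninduced cells and 6.02 ± 0.17 in GFP cells (SD, n = 3 each). IL21R-AS1 averaged 4.84 ± 0.25 in induced cells, 5.13 ± 0.32 in uninduced cells and 4.79 ± 0.06 in GFP cells (SD, n = 3 each).

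Among the members, 17 of 54 (31.5%) had an identical deposited value on 3 or more of the 9 arrays, against 20.6% of all named genes. IL22 and IL31RA had the same value on 6 arrays and IL10 on 5. For 4 members all 3 GFP arrays held the same value, so their SD in that group is 0.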
